A study of Homo sapiens with 12 samples.

Results

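The comparison sets IGROV-1 cells with a scrambled short hairpin RNA (shRNA) against untransfected cells of the same line, and so describes what transfection, a hairpin without a target and drug selection go with when CXCR4 is not targeted. IGROV-1 is an established human ovarian cancer cell line. The comparison covers all probe sets with a single gene symbol on the 3 Mock and 3 Parental arrays, which is 6 of the 12 arrays and 41097 of the 54675 probe sets of the Affymetrix Human Genome U133 Plus 2.0 design. These probe sets represent 19775 genes. Mock cells had received a SUPER RNAi plasmid with a scrambled insert through Lipofectamin 2000, were selected from 48 h onwards in 4 µg/ml puromycin for 30 days, and were kept as a pool of clones. Parental cells are labelled as the cell line alone, with no construct, so the effects of the reagent, the hairpin, the drug and the outgrowth of surviving cells cannot be told apart. The other 6 arrays, 3 each of the CXCR4 shRNA clones I and II, were made with the same reagent and drug but are single clones. They are used here only to show where the other selected cells stand for a gene. The protocols give the same medium for all samples, and 6 µg of total RNA was used per array.

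Puromycin is an analogue of the end of an aminoacyl-tRNA. It enters the growing peptide on the ribosome and releases it early, and transfected cells survive it through a plasmid-borne enzyme that acetylates the drug. A short hairpin RNA is cut by Dicer and loaded onto an Argonaute protein, which then uses the guide strand to find matching transcripts. Long double-stranded RNA can be seen by sensors such as IFIH1 and can raise interferon-stimulated genes. A pool of clones after weeks of selection can also differ from its source because some founder cells have outgrown others.

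Values are the deposited log2 values, on which a difference of 1 is a 2-fold difference in signal. They ran from 1.3 to 13.36. The array medians were 4.25 to 4.28 in Mock and 4.3 to 4.32 in Parental. The interquartile range was wider in Mock, at 3.38 to 3.43, than in Parental, at 3.3 to 3.31, and the correlation between arrays of a group was at least 0.9961 in Mock and 0.9974 in Parental. The labels do not say whether the replicates came from separate cultures, so each p-value speaks of the scatter among these arrays alone, and that scatter may be technical. In bulk RNA, fewer cells of a kind and less RNA per cell cannot be told apart. The epithelial marker EPCAM was at 11.71 in Mock and 11.63 in Parental, and the Muellerian transcription factor PAX8 was at 10.05 in Mock and 10.21 in Parental. The folate receptor FOLR1 was at 11.76 in Mock and 11.68 in Parental, while MUC16, the gene of the CA125 antigen, was low, at 2.9 in Mock and 3.25 in Parental. None of 14 leukocyte markers passed the limma test, and 0 of them had an unadjusted p under 0.05. The array means of these 14 markers were 3.83 to 3.9 in Mock and 3.91 to 3.95 in Parental, and all 14 lay under 6 in both groups. Calls were rare at such levels: among all genes at 3.31 to 3.98, 1.11% were called higher and 2.98% lower. Of 13 endothelial markers VWF alone was called, and of 10 fibroblast markers MFAP5 alone, both lower in Mock, and the call of VWF ended without Mock replicate 3 or Parental replicate 1 and on the mean of its probe sets (adjusted p 0.144 in limma). The shares called, 7.69% and 10.0%, stand beside 12.5% of all genes. Of the endothelial markers 12 lay under 6 in both groups, and of the fibroblast markers 7.

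Between Mock and Parental, 2469 of 19775 genes were called at an adjusted p under 0.05 in limma, which is 12.5% of the genes. Of these, 1597 were higher in Mock (8.08%) and 872 were lower (4.41%). Over probe sets the share was 10.5%. Most of these differences were small. The median log2 fold change was 0.35 among genes called higher and -0.41 among genes called lower, and 83.7% of the called genes differed by less than 1.5-fold. A total of 103 genes differed at least 2-fold, 36 higher and 67 lower in Mock, of which 11 and 17 had a mean under 6 in both groups and so lay in the dim range of these arrays. The 3 Mock arrays and the 3 Parental arrays did not overlap for 2464 of the called genes, nor for 34.5% of all genes tested.

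The balance of higher and lower calls moved with the scaling. Higher calls were 64.7% of all calls on the values as deposited, 54.2% once arrays were quantile normalized and 74.8% once each was centred on its median. The median change over all genes was 0.0, and it was 0.07 among the 8361 genes with a level of at least 6 and -0.041 among dimmer genes. Over 10 bins of genes by level the median ran between -0.061 and 0.093, against a median standard error of 0.086 for a single gene. After quantile normalization the median of the brighter genes was 0.02. Counts of called list members after quantile normalization are therefore given below, with a list or beside the plot of called members by list. The share of called genes also differed with level. In the dimmest bin 0.15% of genes were called higher and 0.76% lower, against 17.64% and 6.07% in the bin from 7.06 to 7.95. In the bins from 6.19 upwards, 10.47% to 17.64% of genes were called higher and 5.72% to 6.52% lower. The count of a list is to be read beside these shares and the 12.5% of all genes. For a list of mostly bright genes the shares of the bright bins are the closer measure.

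**Figure D1:**
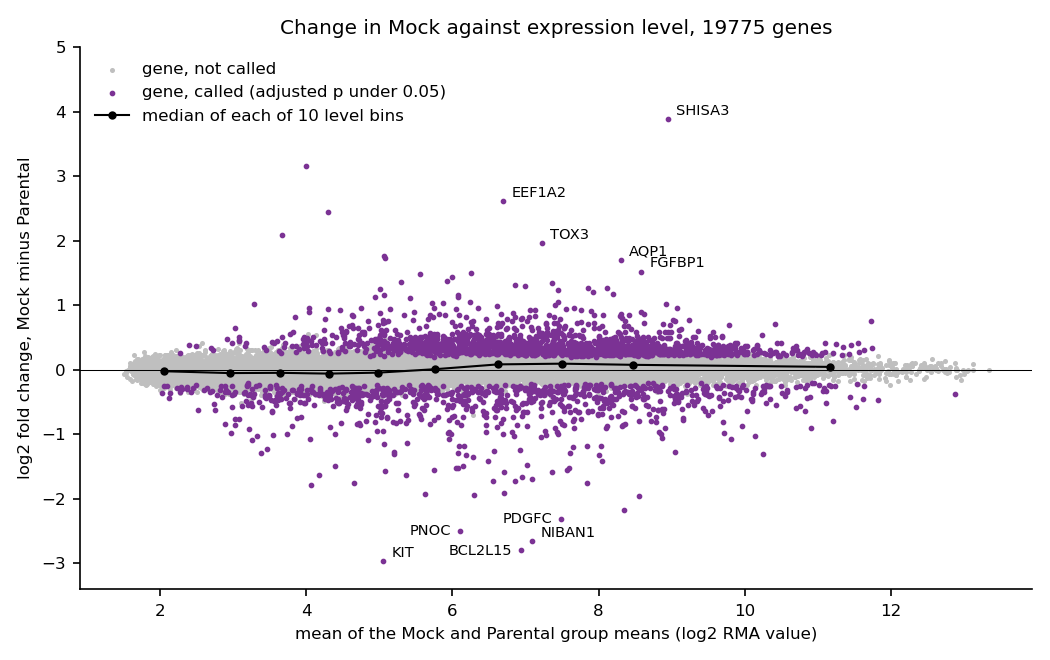
Log2 fold change in Mock minus Parental (vertical axis) against the mean of the group means (horizontal axis, log2 value), with 1 point per gene, called genes in purple and the median of each of 10 level bins as black dots. The cloud lies within a narrow band, the medians run between -0.061 and 0.093, and SHISA3 at 3.88 and KIT at -2.97 are the outermost labelled genes.

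CXCR4 itself, the chemokine receptor that the scrambled hairpin does not target, was measured at 8.51, 8.6 and 8.64 on the Mock arrays and at 8.42, 8.28 and 8.3 on the Parental arrays. The groups did not overlap, yet the difference of 0.25 ± 0.09 (SE) did not pass the test, with an adjusted p of 0.0958 in limma. Its other probe sets read 0.36 (adjusted p 0.0465 in limma, called) and 0.30 (adjusted p 0.11, not called). CXCR4 was called higher in Mock on the mean of its probe sets (0.30, adjusted p 0.0119 in limma), among genes with a mean of at least 6 (adjusted p 0.0314), among the upper 50% of probe sets by level (adjusted p 0.0461) and with a trended robust variance (adjusted p 0.039). In the knockdown clones the same probe set stood at 7.09 and 6.62, against 8.58 in Mock. Set against Mock, the log2 fold change was -1.49 in clone I (adjusted p 8.53e-08 in limma) and -1.96 in clone II (adjusted p 4.48e-09 in limma). Of the 20 measured genes of the CXCR4 axis, 0 were called higher and 2 were called lower (10.0% called, against 12.5% of all genes). These were DPP4, the surface peptidase that trims CXCL12, at 10.03 in Mock and 10.54 in Parental, and ARRB1, an arrestin that desensitises G protein-coupled receptors, at 6.32 in Mock and 6.87 in Parental, though without _x_at and _s_at probe sets ARRB1 was not called (adjusted p 0.0777 in limma). The ligand CXCL12 was dim, at 4.74 in Mock and 4.81 in Parental, and the decoy receptor ACKR3 was at 2.96 in Mock and 3.02 in Parental.

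The widest rise was that of SHISA3, a member of the Shisa family, whose founding member in the frog holds back Wnt and FGF receptors in the endoplasmic reticulum. It read 10.89, 10.92 and 10.86 on the Mock arrays and 7.14, 7.02 and 6.88 on the Parental arrays. The log2 fold change was 3.88 ± 0.08 (SE), a 14.7-fold difference, with an adjusted p of 9.08e-12 in limma. One probe set, of the _x_at kind that can match several transcripts, carries this value. EEF1A2, the form of elongation factor 1A usually found in nerve and muscle, read 7.87, 8.11 and 8.0 in Mock and 5.46, 5.49 and 5.22 in Parental. Its log2 fold change was 2.61 ± 0.16, or 6.09-fold. The HMG-box protein gene TOX3 read 8.17, 8.26 and 8.18 in Mock and 6.13, 6.31 and 6.28 in Parental, a log2 fold change of 1.96. The TOX3 probe sets that rose are all of the _x_at kind. The remaining one, of the _s_at kind and dim in both groups, read -0.02 (adjusted p 0.947 in limma). SHISA3, EEF1A2 and TOX3, like all leading genes, were chosen among genes whose Mock and Parental arrays did not overlap.

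AQP1, the water channel of secretory and endothelial cells, was 9.04, 9.16 and 9.25 in Mock and 7.44, 7.45 and 7.47 in Parental (log2 fold change 1.70). FGFBP1, a secreted carrier that frees fibroblast growth factors from the matrix, was 9.37, 9.36 and 9.3 in Mock and 7.84, 7.81 and 7.82 in Parental (log2 fold change 1.52). DACH1, a nuclear cofactor that works with EYA proteins, was 7.04, 6.99 and 7.0 in Mock and 5.5, 5.53 and 5.48 in Parental (log2 fold change 1.5). Spread within a group was at most 0.11 (SD, n = 3) for these genes. The other leading rises were VAC14-AS1 (1.49), the immediate early gene FOS (1.44), the transcription factor SOX9 (1.37), the amino acid transporter SLC16A10 (1.31), the creatine transporter SLC6A8 (1.30), the semaphorin SEMA4A (1.26) and the interleukin-4 receptor chain IL4R (1.24). The OCT4-like copies POU5F1P3 and POU5F1P4 read 1.34 and 1.26 higher, each on an _x_at probe set, and because these copies are nearly identical in sequence it is uncertain which of them the signal comes from. NOSTRIN, which acts in the trafficking of endothelial nitric oxide synthase, had a log2 fold change of 2.44. Its mean was under 6 in both groups, at 5.52 in Mock and 3.08 in Parental.

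The widest fall was that of KIT, the receptor tyrosine kinase for stem cell factor. It read 3.76, 3.33 and 3.63 in Mock and 6.68, 6.31 and 6.63 in Parental, a log2 fold change of -2.97 ± 0.11 (SE) or 7.81-fold, with an adjusted p of 9.55e-10 in limma. BCL2L15, a BCL2-related gene, read 5.66, 5.57 and 5.38 in Mock and 8.35, 8.36 and 8.3 in Parental (log2 fold change -2.80), and all 3 of its probe sets passed with values of -3.66 to -1.76. NIBAN1, a stress-responsive protein that influences translation factors, read 5.76, 5.7 and 5.82 in Mock and 8.37, 8.49 and 8.41 in Parental (log2 fold change -2.66). In Mock these genes lay below the level of 6 used here to mark dim probe sets.

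PNOC, which encodes the precursor of the neuropeptide nociceptin, read 4.81, 4.9 and 4.84 in Mock and 7.39, 7.25 and 7.41 in Parental (log2 fold change -2.50). PDGFC, a ligand of the platelet-derived growth factor receptors, read 6.37, 6.27 and 6.37 in Mock and 8.58, 8.6 and 8.74 in Parental (log2 fold change -2.31). ITGB8, an integrin chain that activates latent TGF-beta, read 7.27, 7.22 and 7.27 in Mock and 9.43, 9.52 and 9.35 in Parental (log2 fold change -2.18). The next genes in order, among those with a mean of at least 6 in the higher group, were the caveolin CAV2 (-1.95), the potassium channel KCNJ16 (-1.94), PNMA2 (-1.92), LRATD1 (-1.91), the neuronal adhesion molecule NRCAM (-1.76), the axon guidance mediator DPYSL2 (-1.73), the histone deacetylase HDAC9 (-1.72), the ephrin receptor EPHA4 (-1.70) and SYTL2 (-1.66), which helps dock secretory vesicles. For LRATD1 the brightest probe set left without the _x_at and _s_at kinds read -0.03 (adjusted p 0.922 in limma). Dimmer ones of the remaining kind were called lower, at -0.70 (adjusted p 2.52e-05 in limma) and -0.30 (adjusted p 0.0192).

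**Figure D2:**
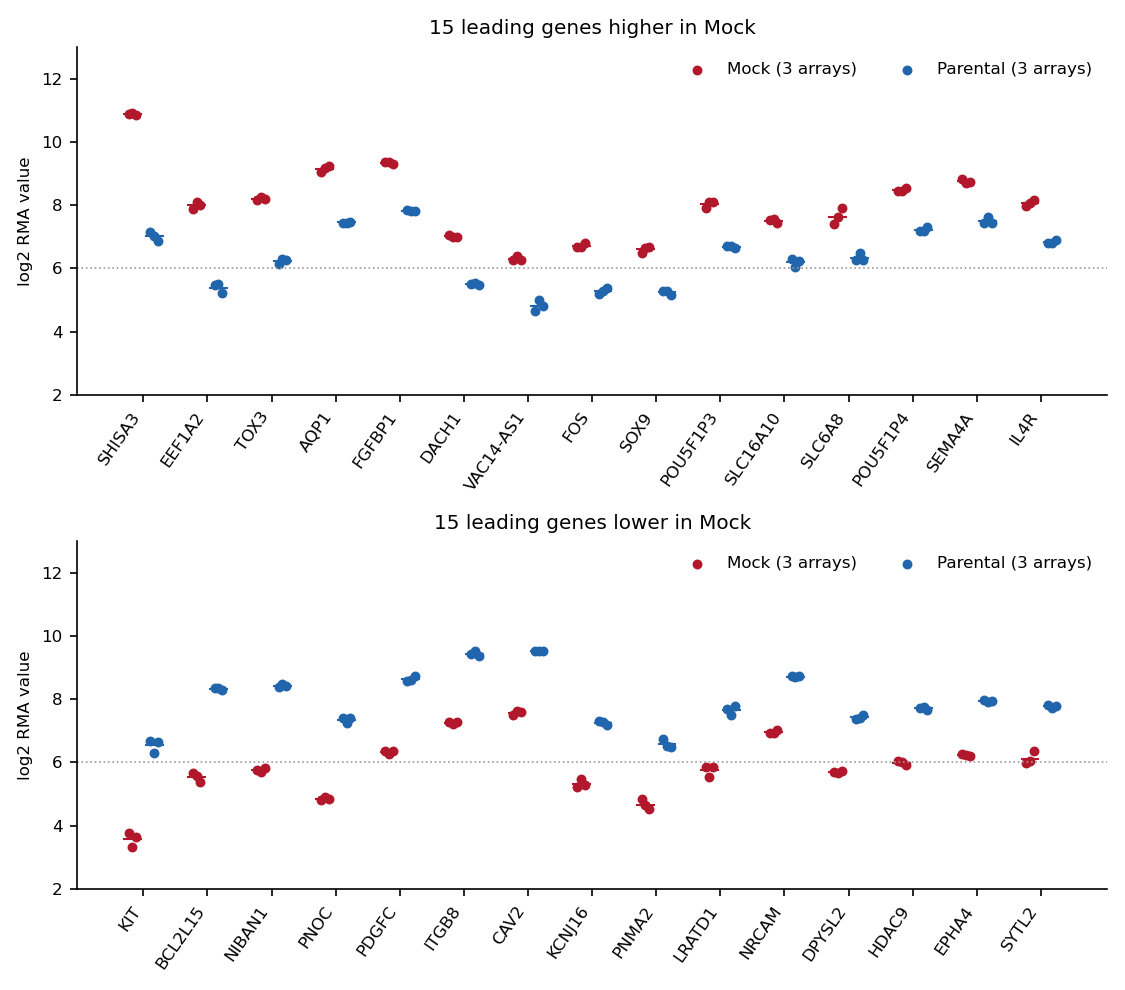
Log2 value on each array for 15 genes that rose (top) and 15 that fell (bottom) in Mock against Parental. They are the widest changes among called genes with a mean of at least 6 in the higher group and no overlap between the arrays. Mock stands to the left of Parental for each gene, with a bar at the mean of 3 arrays. The dotted line marks the level of 6. The 3 Mock points stand clear of the 3 Parental points for every gene because only genes without overlap were chosen.

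The leading genes differed in where the CXCR4 shRNA clones stood. For SHISA3 the clones were at 8.67 and 8.96, against 10.89 in Mock and 7.01 in Parental, so they lay between both controls. For KIT (4.41 and 4.39 in the clones, 3.57 in Mock, 6.54 in Parental), NIBAN1 (6.75 and 6.95, 5.76, 8.42) and PNOC (5.72 and 6.11, 4.85, 7.35) they also lay between. For FGFBP1 the clones were at 9.64 and 8.94, against 9.34 in Mock and 7.82 in Parental, so clone I lay above Mock and clone II below it. SLC6A8 was at 7.89 and 7.82 in the clones, 7.64 in Mock and 6.34 in Parental, and for neither clone did the difference from Mock pass the test (adjusted p 0.179 and 0.323 in limma). Without Mock replicate 3, SLC6A8 was called higher in clone I than in Mock (0.38, adjusted p 0.0419 in limma). EPHA4 was at 6.13 and 6.39 in the clones, 6.24 in Mock and 7.95 in Parental, again without a call against Mock (adjusted p 0.323 and 0.169 in limma). These are genes for which all selected groups stood on the same side of Parental.

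Other leading genes showed the clones on the Parental side. AQP1 was at 7.51 and 7.76 in the clones, 9.15 in Mock and 7.45 in Parental. BCL2L15 was at 7.96 and 8.33 in the clones, 5.53 in Mock and 8.34 in Parental. NRCAM was at 9.28 and 9.17 in the clones, 6.96 in Mock and 8.72 in Parental. EEF1A2, TOX3 and DACH1 lay lower in the clones than in either control: EEF1A2 at 4.37 and 4.70, against 8.0 in Mock and 5.39 in Parental, TOX3 at 4.95 and 4.92, against 8.2 in Mock and 6.24 in Parental, and DACH1 at 2.6 and 2.7, against 7.01 in Mock and 5.5 in Parental. Each clone differed from Mock in the limma test for all 6 of these genes, with adjusted p-values of 1.58e-08 or smaller in the clones' tests of AQP1, BCL2L15, NRCAM, EEF1A2, TOX3 and DACH1. Against Mock, 20.6% of all genes were called in clone I and 22.5% in clone II, and the clones are single isolates, so clonal origin and CXCR4 knockdown cannot be told apart.

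**Figure D3:**
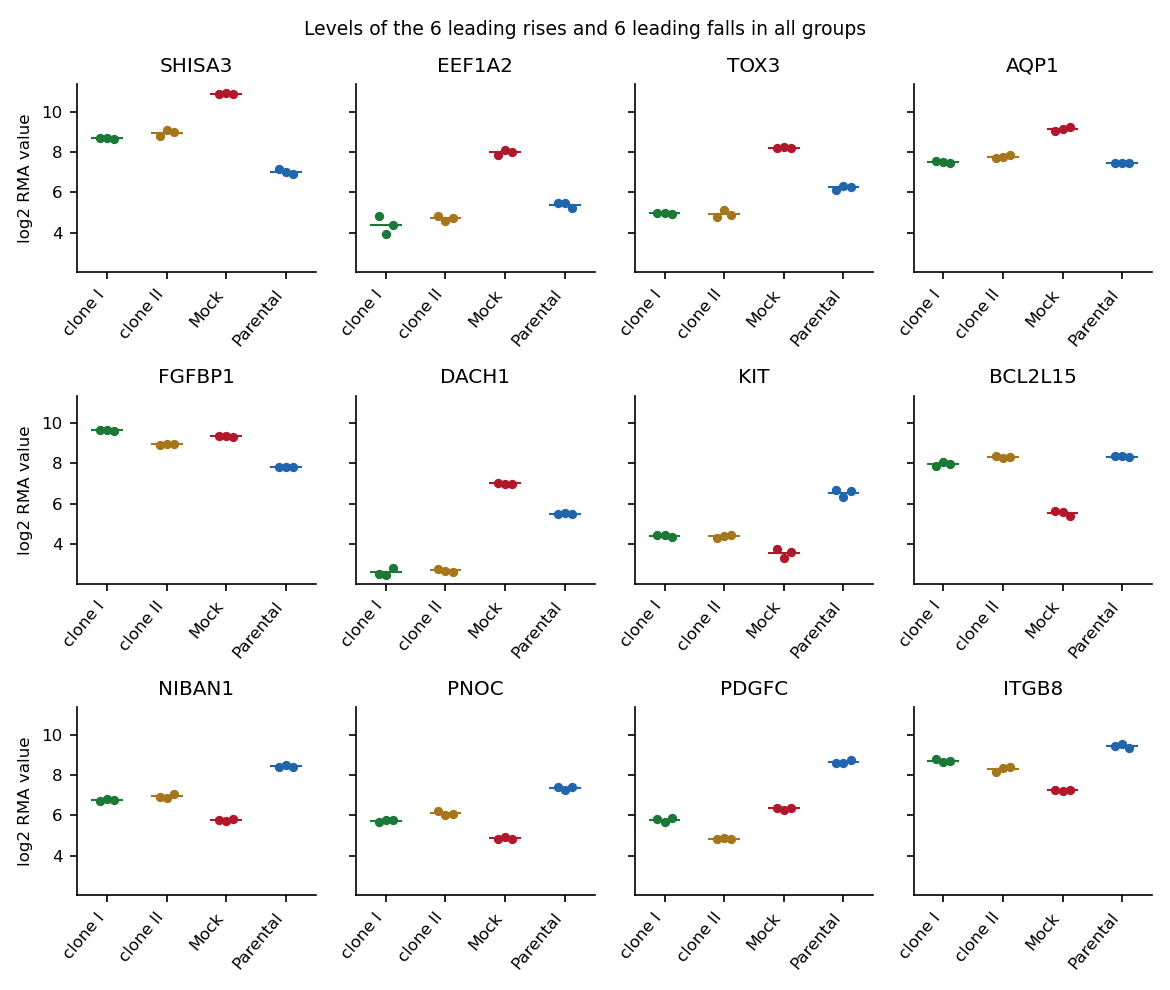
Log2 value on each array (points) and group mean (bar) of 6 rises and 6 falls, from left to right in clone I, clone II, Mock and Parental. They are the widest among the leading genes, which had a mean of at least 6 in the higher group. In FGFBP1 and PDGFC the clones lie on the Mock side of Parental, in AQP1 and BCL2L15 they lie near Parental, and in EEF1A2, TOX3 and DACH1 they lie below both.

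Among 18 measured genes of RNA interference, 2 were called higher and 1 lower in Mock (16.7% called, against 12.5% of all genes). Most of the list was bright, and in the level bins from 6.19 upwards 10.47% to 17.64% of all genes were called higher and 5.72% to 6.52% lower. TSN, a part of the nuclease that clears the passenger strand, was at 9.95 ± 0.03 in Mock and 9.59 ± 0.06 in Parental (SD, n = 3 each; log2 fold change 0.36, adjusted p 0.00201 in limma). AGO2, the slicing Argonaute, was at 8.92 ± 0.14 in Mock and 8.58 ± 0.12 in Parental, with an adjusted p of 0.0275 in limma. SND1, a nuclease found in the silencing complex, was at 7.54 in Mock and 7.83 in Parental. Without Parental replicate 3 neither AGO2 nor SND1 was called (adjusted p 0.089 and 0.0588 in limma), which left 1 call in the list, and the call of AGO2 also ended without Mock replicate 2, Mock replicate 3 or Parental replicate 1 (adjusted p 0.0796, 0.108 and 0.115 in limma) and with Mock and Parental arrays alone in the fit (0.0633). DICER1 (0.28, adjusted p 0.0582), DROSHA (0.21), the export factor XPO5 (0.24, adjusted p 0.0523) and AGO3 (0.28, adjusted p 0.074) were not called by limma on the probe sets that represent them. The other 2 probe sets of XPO5 were called, at 0.38 (adjusted p 0.00267 in limma) and 0.30 (adjusted p 0.0314). With a trended robust variance XPO5, DICER1 and AGO3 were all called higher (adjusted p 0.0164, 0.02 and 0.0339 in limma), and so they were after centring (0.0225, 0.0412 and 0.0474). DROSHA was called among genes with a mean of at least 6 (adjusted p 0.0416 in limma). The list had 6 genes called higher and 1 lower after centring, and 2 higher and 1 lower after quantile normalization. The median log2 fold change of the list was 0.15, against 0.0 over all genes and 0.07 over genes at a level of at least 6, and 16 of its 18 genes lay at that level.

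Of 20 sensors of foreign nucleic acid and their adaptors, 1 was called (5.0%, against 12.5% of all genes). This was IFIH1, which binds long double-stranded RNA, at 5.71 in Mock and 5.4 in Parental, under 6 in both. Its call ended without Mock replicate 1 or 2, without Parental replicate 1 or 2, with Mock and Parental arrays alone in the fit, and on the mean of its probe sets (0.03), and 2 genes of the list were called without Parental replicate 3. DHX58, at 5.49 in Mock and 5.16 in Parental (0.33, adjusted p 0.0605 in limma), was not called. Other settings called it higher, among them centring (adjusted p 0.0328 in limma), a trended robust variance (0.0434) and Mock and Parental arrays alone (0.0329). At an unadjusted p under 0.05, 5 of the 20 were higher and 1 lower. Interferon-stimulated genes went both ways: 8 of 34 were called higher and 4 lower (35.3% called, against 12.5% of all genes), with a median of -0.05. OAS3, which makes the second messenger that activates RNase L, was at 6.93 ± 0.3 in Mock and 6.41 ± 0.04 in Parental (log2 fold change 0.52). The antiviral membrane protein IFITM1 was at 10.1 in Mock and 9.68 in Parental (0.42). IFIT2, which binds foreign RNA ends, was at 5.55 in Mock and 6.01 in Parental (-0.46, adjusted p 0.0165 in limma), and GBP2, a guanylate-binding protein, was dim in both groups at 4.54 in Mock and 4.94 in Parental (-0.40). The call of IFIT2 ended without Mock replicate 1 and without Parental replicates 1 or 2, at adjusted p-values of 0.0585 to 0.0802, and with Mock and Parental arrays alone in the fit (0.0658 in limma).

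The class I antigen presentation list had 7 called of 23 measured genes (30.4%, against 12.5% of all genes called and 8.08% called higher). All 7 were higher in Mock, and the class II gene HLA-DMA is among these 7. PSMB9, a subunit of the immunoproteasome, was at 6.25 ± 0.06 in Mock and 5.39 ± 0.02 in Parental (SD, n = 3 each; log2 fold change 0.86, adjusted p 1.33e-05 in limma). HLA-B was at 9.77 in Mock and 9.37 in Parental (0.40), and the peptide transporter TAP2 was at 5.81 in Mock and 5.31 in Parental (0.50), under 6 in both, and the mean of its 4 probe sets, 0.12, was not called. HLA-DMA, the widest rise of the list at 5.65 in Mock and 4.49 in Parental (1.15), was under 6 in both. It belongs to class II presentation, where it helps load peptides. The class I heavy chains are similar in sequence, and without probe sets of the _x_at and _s_at kinds only 2 calls of the list were left. PSMB9 in the clones was at 5.42 and 5.05, both under Mock at 6.25.

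Of 37 translation factors and ribosome rescue genes, 5 were called higher and 1 lower (16.2% called, against 12.5% of all genes), and EEF1A2 alone differed at least 2-fold. Of the 37, 35 lay at a level of at least 6. In the level bins from 6.19 upwards, 10.47% to 17.64% of all genes were called higher and 5.72% to 6.52% lower. EIF2S1, the alpha subunit of initiation factor eIF2, was at 10.22 in Mock and 9.85 in Parental (log2 fold change 0.37). NEMF, which tags stalled nascent chains on the large subunit, was at 8.51 in Mock and 8.2 in Parental (0.31), with 4 of 4 probe sets called, and its call ended without Parental replicate 1 (adjusted p 0.0502 in limma). ABCE1, which splits ribosomes after termination, was at 9.26 in Mock and 9.01 in Parental (0.25), and its call ended after quantile normalization, with Mock and Parental arrays alone in the fit, and without any one array other than Mock replicate 3, at adjusted p-values of 0.0647 to 0.132 in limma. When single arrays were left out, the calls in this list were 2 without Parental replicate 1 and 3 without Mock replicate 2, Parental replicate 2 or Parental replicate 3. Among 27 cytosolic ribosomal proteins 0 were called by limma, against 12.5% of all genes. At an unadjusted p under 0.05, 2 of them were higher and 0 lower. RPS15, with the highest difference of that list, was at 12.64 in Mock and 12.48 in Parental, and it was called with a trended robust variance, among genes with a mean of at least 6 and among the upper 50% by level (adjusted p 0.0024, 0.0181 and 0.0357 in limma).

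ATF4 and its amino acid response targets were mostly lower where called: 9 of 36 fell and 4 rose (36.1% called, against 12.5% of all genes), with a median of -0.06. CTH, which makes cysteine from cystathionine, read 7.68, 7.75 and 7.53 in Mock and 8.54, 8.56 and 8.57 in Parental (log2 fold change -0.90, adjusted p 1.6e-05 in limma). PHGDH, the first enzyme of serine synthesis, was at 6.58 ± 0.06 in Mock and 7.45 ± 0.09 in Parental (-0.87). The pseudokinase TRIB3 read 8.12, 8.22 and 8.15 in Mock and 8.98, 8.95 and 8.92 in Parental (-0.79). No array overlapped in any of these. ASNS, asparagine synthetase, read 8.17, 8.21 and 8.12 in Mock and 8.77, 8.68 and 8.77 in Parental (-0.57). Its other probe set gave -0.06 but was dim in both groups, at 2.06 in Mock and 2.13 in Parental. ALDH1L2, a mitochondrial folate enzyme, went the other way at 4.55 in Mock and 3.93 in Parental, dim in both.

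In the clones the same genes did not stand together. PHGDH was at 8.48 and 8.33, against 6.58 in Mock and 7.45 in Parental, and ASNS was at 9.7 and 9.4, against 8.17 in Mock and 8.74 in Parental. CTH lay lower still, at 7.11 and 6.73, against 7.65 in Mock and 8.56 in Parental. In the unfolded protein response, 3 of 24 genes rose and 2 fell (20.8% called, against 12.5% of all genes). The rises were SDF2L1 (0.46), CRELD2 (0.39) and the oxidase ERO1A (0.37), and DNAJB9, a helper of BiP, fell by 0.38 on the log2 scale, a call that ended without _x_at and _s_at probe sets (adjusted p 0.0778 in limma). Of 19 heat shock genes 4 rose and 0 fell (21.1% called, against 12.5% of all genes). HSPA4L was at 7.67 in Mock and 7.07 in Parental (0.60), the co-chaperone DNAJB1 was at 9.37 in Mock and 8.84 in Parental (0.52), and HSPA2 was at 6.61 in Mock and 6.22 in Parental (0.40). After quantile normalization 4 were called higher and 0 lower.

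Immediate early genes and feedback genes of ERK signalling held the highest share of calls of the 42 lists: 14 of 34 were called higher and 3 lower. FOS, a subunit of the AP-1 factor, read 6.67, 6.69 and 6.79 in Mock and 5.19, 5.28 and 5.37 in Parental (log2 fold change 1.44 ± 0.09 SE, adjusted p 1.73e-07 in limma). PHLDA1 was at 7.8 ± 0.06 in Mock and 6.99 ± 0.08 in Parental (0.81), and SPRY2, a feedback inhibitor of receptor tyrosine kinase signals, was at 8.98 ± 0.06 in Mock and 8.25 ± 0.07 in Parental (0.73). ETV5, an ETS factor induced by ERK, was at 8.38 in Mock and 7.8 in Parental (0.58). Without _x_at and _s_at probe sets it was not called (adjusted p 0.0709 in limma), on a dim probe set that read 0.40. EGR1 read 9.93, 9.74 and 10.15 in Mock and 9.12, 9.52 and 9.65 in Parental, a wider spread than the other genes, and its call ended without Mock replicate 1 or 3, or Parental replicate 1 or 2, with Mock and Parental arrays alone in the fit, with a trended robust variance, and on the mean of its probe sets. The number of calls in the list was 9 without Parental replicate 1 and 11 without Mock replicate 3, Parental replicate 2 or Parental replicate 3, against 17 with all arrays. It was also 11 without _x_at and _s_at probe sets. After quantile normalization 13 were called higher and 3 lower. In the clones FOS was at 7.64 and 6.47, against 6.72 in Mock and 5.28 in Parental, and SPRY2 was at 8.52 and 7.87, against 8.98 in Mock and 8.25 in Parental.

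**Figure D4:**
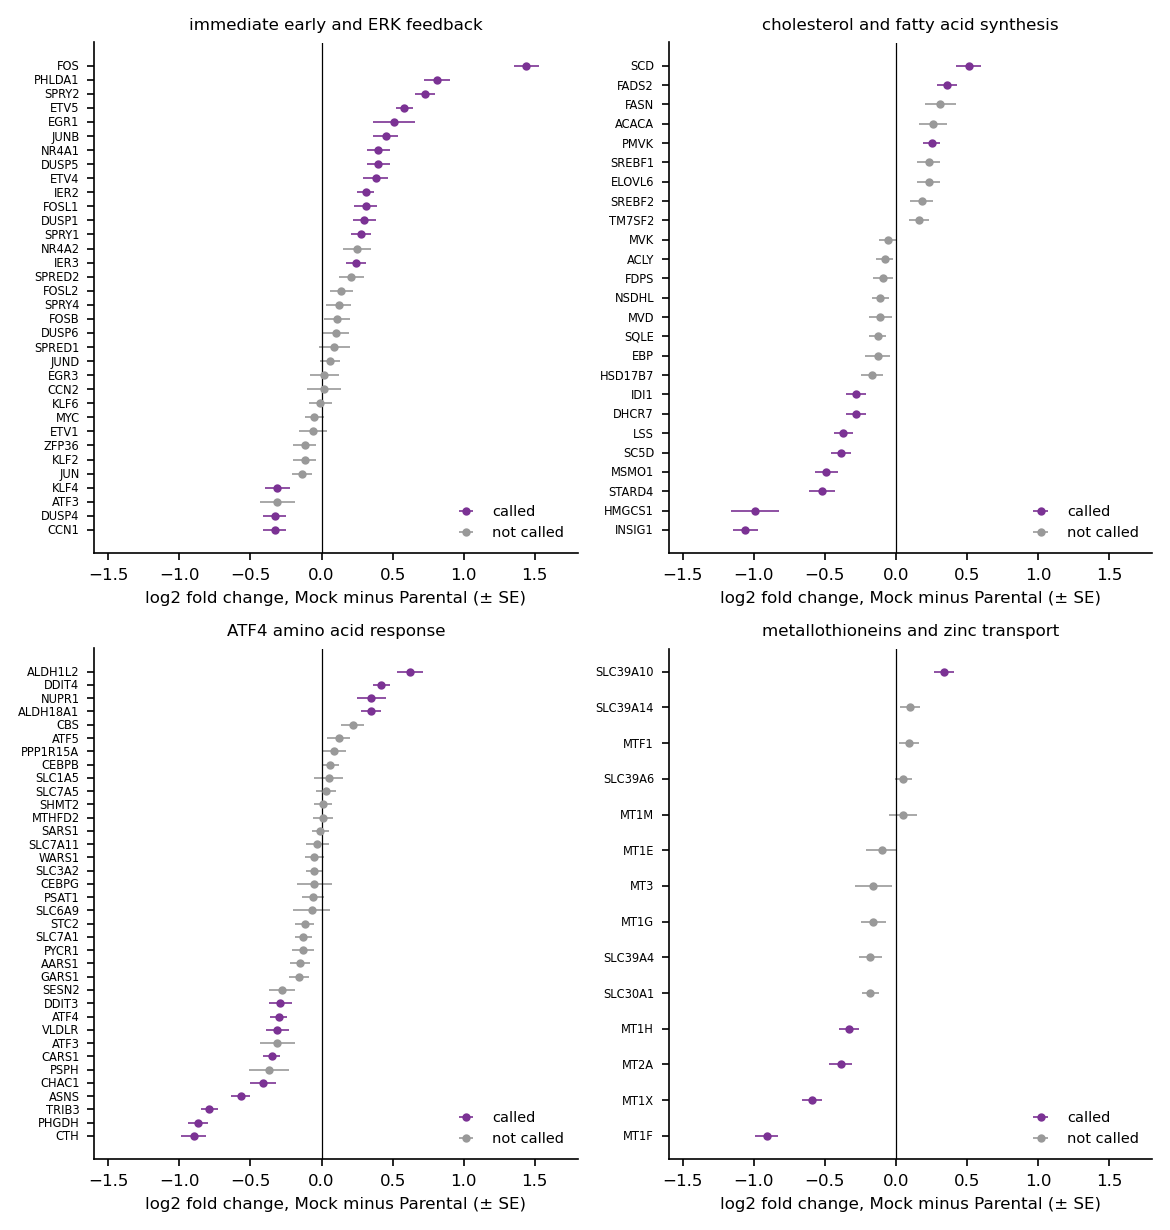
Log2 fold change in Mock minus Parental with limma's standard error (horizontal axis) of every measured member of 4 gene lists, called genes in purple and others in grey. FOS lies highest among immediate early genes at 1.44, INSIG1 lowest among sterol genes at -1.06, CTH lowest in the ATF4 list at -0.90 and MT1F lowest among metallothioneins at -0.91.

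Receptor tyrosine kinases and their ligands had 6 called higher and 11 lower of 56 measured (30.4% called, against 12.5% of all genes), with a median of -0.09. Beside KIT, PDGFC and EPHA4, the fibroblast growth factor receptor FGFR2 was at 6.97 ± 0.08 in Mock and 8.26 ± 0.04 in Parental (log2 fold change -1.29). Without _x_at and _s_at probe sets it read -0.10 and was not called. That reading came from a probe set dim in both groups, at 3.91 in Mock and 4.02 in Parental. TGFA, a ligand of the EGF receptor, was at 5.43 ± 0.1 in Mock and 6.73 ± 0.04 in Parental (-1.29). TGFA was at 6.65 and 6.09 in the clones, against 5.43 in Mock. Among genes of G protein signalling 7 of 40 rose and 4 fell (27.5% called, against 12.5% of all genes). The phosphodiesterase PDE4D was at 6.77 in Mock and 5.72 in Parental (1.05), RGS2, which ends signals of Gq, was at 6.52 in Mock and 5.58 in Parental (0.94), and the lysophosphatidic acid receptor LPAR3 was at 5.93 in Mock and 6.41 in Parental (-0.48). After quantile normalization 4 of that list were called higher and 4 lower, and without Parental replicate 1 the list had 7 calls in all.

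Adhesion and guidance molecules were mostly lower where called, 10 of 37 against 3 higher (35.1% called, against 12.5% of all genes), with a median of -0.13. NCAM1, the neural cell adhesion molecule, was at 7.35 ± 0.16 in Mock and 8.67 ± 0.04 in Parental (log2 fold change -1.32, adjusted p 3.11e-07 in limma). NTN4, a netrin of basement membranes, was at 4.98 in Mock and 6.53 in Parental (-1.55), and the gap junction protein GJA1 (a connexin) was at 7.21 in Mock and 8.11 in Parental (-0.90). SEMA3C, a secreted semaphorin, was at 8.79 in Mock and 9.53 in Parental (-0.75). NCAM1 was at 8.61 and 8.82 in the clones, near its Parental level, while GJA1 was at 2.94 and 3.25 in the clones, far below Mock at 7.21. In caveolae, CAV1 was at 6.33 in Mock and 7.36 in Parental (-1.03), beside the fall of CAV2.

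Integrins and basement membrane proteins had 7 of 26 higher and 2 lower (34.6% called, against 12.5% of all genes). Apart from ITGB8, the lower gene was NID2, a nidogen that links laminin to collagen, at 10.4 in Mock and 10.99 in Parental (log2 fold change -0.59). The laminin chain LAMA5 was at 8.76 ± 0.26 in Mock and 8.13 ± 0.12 in Parental (0.63), ITGA3 at 8.0 in Mock and 7.48 in Parental (0.52), and ITGB4 at 8.93 in Mock and 8.42 in Parental (0.51). ITGB4 read -0.15 without _x_at and _s_at probe sets, where it was not called. That reading came from a probe set dim in both groups, at 2.87 in Mock and 3.02 in Parental. Of 41 mesenchymal and matrix genes 1 rose and 7 fell (19.5% called, against 12.5% of all genes). CDH2 (N-cadherin) was at 5.48 ± 0.08 in Mock and 6.48 ± 0.22 in Parental (-1.00), the fibrillin FBN1 at 9.13 in Mock and 9.85 in Parental (-0.71, not called without _x_at and _s_at probe sets, adjusted p 0.118 in limma), and MFAP2, a microfibril protein, at 6.3 in Mock and 6.92 in Parental (-0.62). The calls of that list were 4 without Parental replicate 1 or 2 and 5 without Mock replicate 1, Mock replicate 2 or Parental replicate 3, against 8 with all arrays. Proteases and inhibitors had 1 called higher and 7 lower of 43 (18.6% called, against 12.5% of all genes). SERPINE2, an inhibitor of thrombin and urokinase, was at 5.32 in Mock and 6.84 in Parental (-1.52), the metalloproteinase ADAMTS1 at 5.5 in Mock and 6.68 in Parental (-1.18) and MMP7 at 11.23 in Mock and 11.82 in Parental (-0.58), while SLPI, a secreted protease inhibitor, was at 10.76 in Mock and 10.06 in Parental (0.70). MMP1 was dim in both, at 3.17 in Mock and 4.95 in Parental.

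Epithelial genes split. Of 35 measured, 8 were called higher and 4 lower (34.3% called, against 12.5% of all genes), with a median of 0.06. CDH1 (E-cadherin) was at 7.9 ± 0.08 in Mock and 8.76 ± 0.07 in Parental (log2 fold change -0.86, adjusted p 3.37e-06 in limma), so both cadherins were lower in Mock. The desmosomal plaque protein PKP2 was at 5.97 in Mock and 6.94 in Parental (-0.97), and the epithelial factor ELF3 was at 7.38 in Mock and 8.14 in Parental (-0.76). The serine protease ST14 was at 8.37 in Mock and 7.95 in Parental (0.41). The keratin KRT7 was at 8.74 ± 0.1 in Mock and 7.88 ± 0.07 in Parental (0.86), but its probe sets disagreed, with -0.04 where _x_at and _s_at probe sets were left out. In the Muellerian and ovarian lineage list 9 of 33 were higher and 4 lower (39.4% called, against 12.5% of all genes). ALDH1A1, a retinal dehydrogenase, was at 9.6 ± 0.04 in Mock and 10.9 ± 0.02 in Parental (-1.30), and it was lower still in the clones, at 8.99 and 8.75. SCGB2A1, a secretoglobin, was at 5.28 in Mock and 6.81 in Parental (-1.53), and VTCN1, the immune checkpoint ligand B7-H4, was at 6.15 in Mock and 5.32 in Parental (0.82). EYA4, a transcriptional coactivator that works with DACH1, was dim at 5.5 in Mock and 4.37 in Parental (1.13), and in the clones it was at 2.86 and 3.04.

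Among developmental transcription factors 8 of 50 were higher and 6 lower (28.0% called, against 12.5% of all genes). SOX9 read 6.49, 6.65 and 6.69 in Mock and 5.29, 5.28 and 5.15 in Parental, with both probe sets called. RUNX2, a factor of bone formation, was at 5.94 in Mock and 7.2 in Parental (log2 fold change -1.26), although 1 of its 6 probe sets was called. In the Wnt list, 4 of 44 were higher and 5 lower (20.5% called, against 12.5% of all genes). After SHISA3 the widest change was TCF7L1, a repressor that binds DNA at Wnt targets, at 7.28 in Mock and 6.39 in Parental (0.88). TCF7L1 was at 5.07 and 4.83 in the clones. In the Notch list 5 of 31 were higher and 1 lower (19.4% called, against 12.5% of all genes). The fall was the widest change of that list, MAML2 at 4.3 in Mock and 5.39 in Parental (-1.09), dim in both. The ligand JAG2 was at 7.93 in Mock and 7.31 in Parental (0.62), and it was not called in either clone against Mock (7.99 and 8.09 in the clones). After quantile normalization JAG2 was called higher in clone II than in Mock (0.29, adjusted p 0.0314 in limma). HES1, a Notch target, was at 8.13 ± 0.22 in Mock and 7.39 ± 0.15 in Parental (0.74), and NOTCH2 at 9.21 in Mock and 8.72 in Parental (0.49). HES1 read 0.04 without _x_at and _s_at probe sets, on a probe set dim in both groups (3.93 in Mock and 3.89 in Parental). Of the TGF-beta and BMP genes 4 of 36 rose and 3 fell (19.4% called, against 12.5% of all genes). Among them were the BMP target ID3 at 8.72 in Mock and 7.92 in Parental (0.80), the pseudoreceptor BAMBI at 7.07 in Mock and 6.42 in Parental (0.65), and TGFBR3 at 7.98 in Mock and 8.43 in Parental (-0.45). Of the 24 HOX genes 0 rose and 3 fell, which at 12.5% equals the share called over all genes. HOXB2 was at 8.39 in Mock and 8.96 in Parental (-0.57). Under centring and without Mock replicate 2, Mock replicate 3 or Parental replicate 2, 1 call was left in that list.

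Cholesterol and fatty acid synthesis had 11 called of 25 measured genes (44.0%, against 12.5% of all genes), 8 lower and 3 higher in Mock. INSIG1, which holds the SREBP escort protein in the endoplasmic reticulum and is itself an SREBP target, read 8.37, 8.34 and 8.31 in Mock and 9.36, 9.45 and 9.39 in Parental (log2 fold change -1.06 ± 0.09 SE, adjusted p 3.05e-06 in limma). HMGCS1, the synthase ahead of HMG-CoA reductase, read 7.16, 7.08 and 6.61 in Mock and 7.64, 8.04 and 8.15 in Parental (-0.99 ± 0.17). STARD4, a cholesterol carrier, was at 6.95 in Mock and 7.47 in Parental (-0.52), and the sterol methyl oxidase MSMO1 at 9.85 in Mock and 10.34 in Parental (-0.49). The desaturase SCD, of the fatty acid branch, was higher, at 9.57 in Mock and 9.06 in Parental (0.51). After quantile normalization 9 were called lower and 2 higher, and without _x_at and _s_at probe sets 5 calls of the list were left. In the clones INSIG1 (8.17 and 8.09) and HMGCS1 (6.83 and 6.84) were not called against Mock, with adjusted p-values of 0.187, 0.0599, 0.694 and 0.703 in limma. After centring, INSIG1 was called lower in clone II than in Mock (-0.33, adjusted p 0.0244 in limma).

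The 300 bases around the RefSeq start of the 3 sterol genes below (250 before and 50 after, build GRCh38.p14) are shown because cholesterol genes are known to carry binding sites of NF-Y, a CCAAT-binding factor that works with SREBP. Capitals mark CCAAT on either strand. INSIG1 lies at chr7:155297628-155297927 (plus strand), HMGCS1 at chr5:43313363-43313662 (minus strand) and MSMO1 at chr4:165327419-165327718 (plus strand).
INSIG1: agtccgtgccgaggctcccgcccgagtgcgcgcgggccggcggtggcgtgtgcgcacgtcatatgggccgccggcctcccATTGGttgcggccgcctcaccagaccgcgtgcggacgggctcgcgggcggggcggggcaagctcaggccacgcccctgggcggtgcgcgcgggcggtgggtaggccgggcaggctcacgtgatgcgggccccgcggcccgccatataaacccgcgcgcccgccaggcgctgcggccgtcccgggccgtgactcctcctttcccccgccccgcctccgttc
HMGCS1: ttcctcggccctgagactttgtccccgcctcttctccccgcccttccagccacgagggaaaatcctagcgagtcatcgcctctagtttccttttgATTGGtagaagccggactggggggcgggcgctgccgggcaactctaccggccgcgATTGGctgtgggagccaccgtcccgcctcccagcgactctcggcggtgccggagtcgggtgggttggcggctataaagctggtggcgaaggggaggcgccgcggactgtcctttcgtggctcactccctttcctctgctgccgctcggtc
MSMO1: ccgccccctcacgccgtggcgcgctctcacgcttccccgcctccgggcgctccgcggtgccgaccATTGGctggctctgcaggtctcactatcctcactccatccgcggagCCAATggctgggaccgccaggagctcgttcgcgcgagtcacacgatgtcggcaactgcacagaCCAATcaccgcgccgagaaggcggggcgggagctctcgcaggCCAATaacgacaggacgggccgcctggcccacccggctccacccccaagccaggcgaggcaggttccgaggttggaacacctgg
CCAAT was found in 7 of the 8 promoters of the genes that fell and in 17 of 23 promoters of measured members of that list found in the table, against 35.7% of all 27305 promoters of this length. The sterol element consensus TCACNCCAC, on either strand, was in 0 of the 8 and in 1 of the 23, against 1.15% of all promoters. These windows are short, so no match says only that the letters are not in them.

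Metallothioneins are small proteins that bind zinc and copper. Of 14 measured genes of that family and of zinc transport, 4 fell and 1 rose (35.7% called, against 12.5% of all genes). The 4 were all metallothioneins, while MT1E, MT1G, MT1M and MT3 were not called. MT1F read 6.82, 6.99 and 7.01 in Mock and 8.02, 7.85 and 7.7 in Parental (log2 fold change -0.91 ± 0.08 SE, adjusted p 9.41e-06 in limma). MT1X read 7.62, 7.77 and 7.77 in Mock and 8.31, 8.3 and 8.31 in Parental (-0.59). MT2A read 8.14, 8.3 and 8.31 in Mock and 8.67, 8.71 and 8.55 in Parental (-0.39), and MT1H read 7.21, 7.16 and 7.17 in Mock and 7.54, 7.58 and 7.42 in Parental (-0.33). The call of MT1H ended without Parental replicate 2 (adjusted p 0.0521 in limma). These 4 come from _x_at probe sets, and the genes are nearly identical copies, so it is uncertain how the signal divides among them; without _x_at and _s_at probe sets 1 call of the list was left. The zinc importer SLC39A10 rose, at 8.66 in Mock and 8.32 in Parental (0.34).

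Their promoters are printed because metallothioneins respond to zinc through the factor MTF1, which binds the metal response element. Capitals mark the core TGCGCNC or TGCACNC on either strand. MT1X lies at chr16:56682220-56682519, MT2A at chr16:56608334-56608633 and MT1H at chr16:56669564-56669863, all on the plus strand of GRCh38.p14.
MT1X: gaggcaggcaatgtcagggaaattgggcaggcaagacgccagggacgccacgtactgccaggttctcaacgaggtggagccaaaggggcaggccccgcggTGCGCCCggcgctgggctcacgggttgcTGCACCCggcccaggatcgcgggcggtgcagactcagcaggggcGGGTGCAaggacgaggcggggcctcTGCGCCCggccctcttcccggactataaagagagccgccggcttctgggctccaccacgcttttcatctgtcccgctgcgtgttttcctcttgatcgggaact
MT2A: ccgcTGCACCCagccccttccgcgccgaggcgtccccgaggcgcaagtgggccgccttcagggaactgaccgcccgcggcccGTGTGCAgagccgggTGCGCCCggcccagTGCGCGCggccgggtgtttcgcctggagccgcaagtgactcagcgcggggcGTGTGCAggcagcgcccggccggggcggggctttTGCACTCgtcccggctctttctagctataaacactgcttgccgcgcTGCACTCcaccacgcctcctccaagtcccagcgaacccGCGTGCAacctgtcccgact
MT1H: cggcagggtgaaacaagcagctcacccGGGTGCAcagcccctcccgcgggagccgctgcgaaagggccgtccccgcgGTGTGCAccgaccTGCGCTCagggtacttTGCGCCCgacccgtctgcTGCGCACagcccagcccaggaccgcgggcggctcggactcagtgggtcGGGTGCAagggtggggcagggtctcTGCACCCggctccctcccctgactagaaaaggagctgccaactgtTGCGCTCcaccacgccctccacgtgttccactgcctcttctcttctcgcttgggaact
MT1X held 4 matches, MT2A 8 and MT1H 8 in their 300 bases. A match was present in 5 of 7 promoters of the list that the table holds, against 29.3% of all 27305.

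Genes of glutathione synthesis and of the NRF2 response had 1 of 33 higher and 6 lower (21.2% called, against 12.5% of all genes). The widest change was the fall of AKR1C3 (-1.09), dim in both groups at 2.71 in Mock and 3.8 in Parental. HMOX1, heme oxygenase, was at 5.95 ± 0.09 in Mock and 6.59 ± 0.08 in Parental (log2 fold change -0.64, adjusted p 8.25e-05 in limma), and GCLM, a subunit of the enzyme that starts glutathione synthesis, was at 9.45 in Mock and 9.94 in Parental (-0.49). The glutathione transferase GSTM3 was higher, at 12.1 ± 0.02 in Mock and 11.34 ± 0.07 in Parental (0.76). For HMOX1 (5.92 and 6.12) and GSTM3 (12.26 and 12.24) the clones were not called against Mock. Glycolysis and hypoxia genes had 11 of 37 higher and 3 lower (37.8% called, against 12.5% of all genes). ADM, adrenomedullin, was dim at 5.45 in Mock and 4.71 in Parental (0.74), and PDK1, which shuts off pyruvate dehydrogenase, was also under 6 in both, at 5.86 in Mock and 5.22 in Parental (0.65). Another of the PDK1 probe sets was called the opposite way (-0.31, adjusted p 0.0354 in limma), and the mean over them, 0.20, was not called (adjusted p 0.0572). The carbonic anhydrase CA12 was at 10.51 in Mock and 9.97 in Parental (0.54), and hexokinase HK2 at 9.08 in Mock and 8.59 in Parental (0.50), though 1 of its 3 probe sets was called and their mean, 0.07, was not. The hypoxia factor EPAS1 went the other way, at 8.35 in Mock and 9.03 in Parental (-0.68). Among ABC transporters, 4 of 22 rose and 3 fell (31.8% called, against 12.5% of all genes), and ABCA3 was at 7.29 in Mock and 6.62 in Parental (0.67). The widest change was the fall of ABCA1 (-1.29), dim in both groups at 2.74 in Mock and 4.03 in Parental. The drug pump ABCB1 was dim at 3.77 in Mock and 3.35 in Parental, and its call (adjusted p 0.0316 in limma) ended without Mock replicate 3 or any of the Parental replicates, at adjusted p-values of 0.0615 to 0.123.

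The mitotic list held few calls. Of 35 mitotic genes 1 was higher and 1 lower (5.71% called, against 12.5% of all genes). PTTG1 (securin) was at 10.63 in Mock and 11.07 in Parental (-0.44), and KIF2C was at 9.75 in Mock and 9.51 in Parental (0.24, adjusted p 0.0448 in limma). KIF2C lost its call under each analysis that left out an array, after quantile normalization, with all probe sets of the array tested, without _x_at and _s_at probe sets, and with Mock and Parental arrays alone in the fit. Of 39 DNA replication genes 8 were higher and 0 lower (20.5% called), against 12.5% of all genes called in either direction and 8.08% called higher. All 39 lay at a level of at least 6. In the level bins from 6.19 upwards, 10.47% to 17.64% of all genes were called higher. After quantile normalization 3 were called higher and 1 lower, and after centring 13 higher and 0 lower. At an unadjusted p under 0.05, 21 were higher and 1 lower. POLE2, a subunit of DNA polymerase epsilon, was at 8.56 in Mock and 7.99 in Parental (0.57), and POLD2, of polymerase delta, at 9.16 in Mock and 8.86 in Parental (0.30). The number of calls in the list was 3 or 4 when Mock replicate 2, Mock replicate 3 or any Parental replicate was left out. Of 14 replication-dependent histones 4 fell (28.6% called, against 12.5% of all genes). They were led by H1-2 at 7.76 in Mock and 8.36 in Parental (-0.60) and H2AC6 at 7.18 in Mock and 7.64 in Parental (-0.46), and 2 calls were left without Parental replicate 3. In the p53 list 3 of 25 were higher and 4 lower (28.0% called, against 12.5% of all genes). PMAIP1 (NOXA), which opposes MCL1, was at 9.37 in Mock and 9.95 in Parental (-0.57), and TP53I3 was at 8.3 in Mock and 7.95 in Parental (0.35). The calls of the p53 list were 2 without Parental replicate 2, 3 without Parental replicate 3 and 4 without Mock replicate 1 or Parental replicate 1. In the BCL2 and apoptosis list 2 of 31 were higher and 3 lower (16.1% called, against 12.5% of all genes). Of the 31, 23 lay at a level of at least 6, where larger shares of all genes were called. BCL2L15, PMAIP1 and the inhibitor of apoptosis BIRC2 (9.66 in Mock and 10.08 in Parental) were on the lower side.

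**Figure D5:**
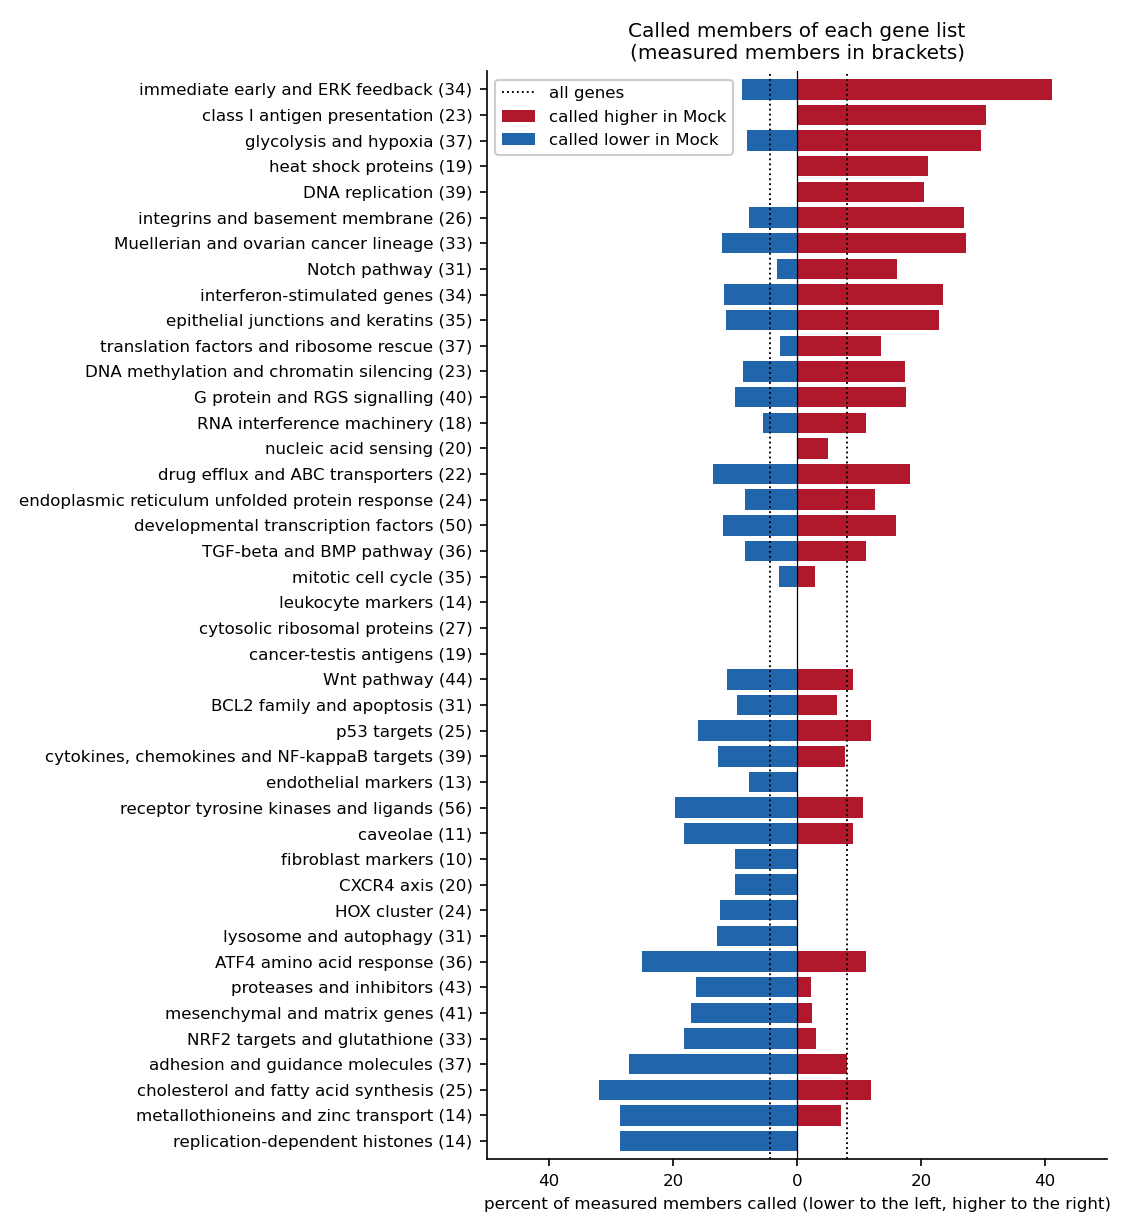
Percent of the measured members of each gene list that were called lower (blue, to the left) or higher (red, to the right) in Mock, with dotted lines at the shares of all genes, 4.41% lower and 8.08% higher. Immediate early and ERK feedback genes reach furthest to the right with 14 of 34, and cholesterol and fatty acid synthesis reaches furthest to the left with 8 of 25.

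Quantile normalization moved other lists by a few calls each. The ATF4 list then had 4 higher and 11 lower, receptor tyrosine kinases and ligands 5 higher and 13 lower, and epithelial genes 8 higher and 6 lower. The p53 list had 2 higher and 5 lower, the BCL2 list 1 higher and 4 lower, and the mitotic list 0 higher and 2 lower. Translation factors had 3 higher and 2 lower, the unfolded protein response 3 higher and 3 lower, and integrins and basement membrane 6 higher and 3 lower. In these lists the lower side gained calls. Cytokines had 2 higher and 6 lower, NRF2 targets 1 higher and 7 lower, the Muellerian list 8 higher and 5 lower, and adhesion molecules 2 higher and 10 lower. Developmental transcription factors had 6 higher and 6 lower, ABC transporters 3 higher and 3 lower, glycolysis and hypoxia 10 higher and 3 lower, and class I presentation 6 higher and 0 lower. The CXCR4 axis had 0 higher and 3 lower, HOX genes 0 higher and 4 lower, mesenchymal genes 0 higher and 7 lower, histones 0 higher and 3 lower, and endothelial markers 0 higher and 2 lower.

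Cytokines and other NF-kappaB targets had 3 of 39 higher and 5 lower (20.5% called, against 12.5% of all genes). The cytokine IL18 was at 9.23 ± 0.16 in Mock and 10.21 ± 0.07 in Parental (log2 fold change -0.98, adjusted p 0.00347 in limma), and TNFAIP3, the feedback inhibitor A20, was at 6.66 in Mock and 7.31 in Parental (-0.65). CXCL1 rose at 5.41 in Mock and 4.68 in Parental (0.73) while CXCL8 fell at 4.44 in Mock and 5.04 in Parental (-0.59), with all of these means under 6. IL32 was also dim, at 4.61 in Mock and 5.31 in Parental (-0.70), and stood at 7.17 and 7.08 in the clones. Lysosome and autophagy genes had 0 higher and 4 lower of 31 (12.9% called, against 12.5% of all genes), and after quantile normalization 9 lower. The protease CTSB was at 9.28 in Mock and 9.58 in Parental (-0.30). Among genes of DNA methylation and chromatin silencing 4 of 23 were higher and 2 lower (26.1% called, against 12.5% of all genes). Beside HDAC9 the remodeller HELLS was at 8.78 in Mock and 8.29 in Parental (0.49). Of 19 cancer-testis antigens 0 were called by limma, and 1 had an unadjusted p under 0.05. All 19 lay under 6 in both groups, and among all genes at 2.6 to 3.31, 0.56% were called higher and 2.18% lower.

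Several genes were read differently by their own probe sets. Of the 10523 genes with at least 2 probe sets, 22 had a called probe set in each direction. LPCAT3, which builds arachidonate into phospholipids, had probe sets at -0.67 and 0.43. RABL6 ranged over -0.70 to 0.52, N4BP2L2 over -0.35 to 0.51, PREX2 over -0.40 to 0.41, TTLL5 over -0.36 to 0.46 and PIF1 over -0.39 to 0.44. The cause of these disagreements was not tested.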

How the data were processed

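RNA of IGROV-1 cells was hybridised to Affymetrix Human Genome U133 Plus 2.0 arrays, 3 each for Mock, Parental and the CXCR4 shRNA clones I and II. The deposited values are log2 expression values made by the authors with RMA in R 2.6.0, per the submitters' processing notes; the table gives no raw probe signals, so background correction could not be varied, and the number of arrays limits the precision. Probe sets were named through the platform annotation: 41097 have 1 gene symbol, 1801 several and 11777 none. Control probe sets that carry a symbol stayed in the fit, and none represents a gene. A model of group means over all 12 arrays was fitted to these 41097 probe sets with limma 3.58.1 (R 4.3.3), with Benjamini-Hochberg adjustment over all of them, and a gene was called at an adjusted p under 0.05. Each gene is represented by its probe set of highest mean. Levels under 6 are called dim.

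Genes were named by rule: the 15 widest rises and falls among called genes without overlap and with a level of at least 6 in the higher group, up to 5 called members of each of 42 lists, all CXCR4 axis and RNA interference genes, and 6 genes with called probe sets in each direction. The members and lists were chosen with earlier results of these data known. The clones were compared with Mock in the same fit. Promoter sequences are RefSeq's, searched on both strands. The alternatives covered normalization, filters, probe-set choice, variance model, thresholds, a replicate block and leaving out each array. The fit was tested on simulated data.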

Additional observations from a re-analysis of the deposited data

Results flagged for a closer look

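Among the 13522 probe sets without a single gene symbol, which the comparison leaves out, 287 were called higher and 219 lower in Mock, and 12 and 13 of these differed at least 2-fold. The probe set 222227_at read 7.95, 8.0 and 7.81 in Mock and 4.5, 5.48 and 4.74 in Parental, a log2 fold change of 3.01 ± 0.21 (SE, adjusted p 4.09e-07 in limma). It read 7.98, 7.98 and 8.16 in clone I and 7.56, 8.1 and 8.21 in clone II, so all selected groups stood above Parental. The probe set 1567912_s_at read 6.54, 6.71 and 6.55 in Mock and 4.5, 4.5 and 4.69 in Parental, a log2 fold change of 2.03 ± 0.09 (SE, adjusted p 2.77e-09 in limma). It read 2.3, 2.04 and 2.07 in clone I and 2.04, 1.97 and 2.0 in clone II, below both controls. Both were singled out because they lie outside the tested genes yet differ clearly between the groups.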

How the results depend on the processing

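The count of called genes, 2469 as reported, lay between 1785 and 3153 under the settings that kept the threshold and every Mock and Parental array, 1785 without _x_at and _s_at probe sets and 3153 with a trended robust variance. It was 399 with a minimum fold of 1.2, 1281 at an adjusted p under 0.01, 2231 with the replicate number as a block, and 1626 (without Parental replicate 3) to 2296 (without Mock replicate 1) with an array left out. Genes that differed at least 2-fold numbered 103, 58 when genes dimmer than a mean of 6 were dropped, and 101 to 110 with an array left out. Higher calls were 64.7% of all, 54.2% after quantile normalization, 74.8% after centring, 45.6% with a minimum fold of 1.2, and 59.6% to 65.3% with an array left out. Averaging all probe sets of a gene turned the direction of HOXB3 (0.05), N4BP2L2 (-0.01), PREX2 (0.11) and RABL6 (-0.17). Dropping _x_at and _s_at probe sets turned that of COL6A1 (-0.11), GINS2 (-0.09), ITGB4 (-0.15), KRT7 (-0.04), N4BP2L2 (-0.24) and SMAD6 (-0.13). Those settings read other probe sets, and the ones read for COL6A1, GINS2, ITGB4 and SMAD6 after dropping were dim in both groups. Of the 84 genes with a 2-fold difference that could be tested without _x_at and _s_at probe sets, 78 kept their call. Dropping them left 0 calls in the mitotic list, 1 each in the p53 and CXCR4 axis lists, 2 each in the Notch, unfolded protein response, class I and histone lists, 3 each among cytokines and DNA replication genes, 4 each among ABC transporters and Wnt genes, 5 each among integrins and mesenchymal genes, 7 among epithelial genes, 8 among adhesion molecules and 10 among receptor tyrosine kinases; 17100 genes could then be tested. Cytosolic ribosomal proteins, with 0 calls as reported, had 5 with a trended robust variance. The replicate numbers showed no clear pairing: deviations of same-numbered Mock and Parental arrays correlated at 0.092, 0.047 and -0.023, and 3 of 6 arrays correlated best with their own number. With 3 arrays per group this check cannot exclude a pairing. With the number as a block, 9 named genes lost their call, ABCE1 (adjusted p 0.0617 in limma) and KIF2C (0.0654) among them, 2 gained one, AGO3 (0.0426) among them, and DNA replication had 3 calls. Dim genes limit what these arrays can show, and a p above the threshold does not show equal levels.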
